A study of Rattus norvegicus with 15 samples.

Results

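Peptide receptors of the melanocortin, calcitonin, kinin, somatostatin and neuropeptide Y families were examined in neurons taken from the midbrain of the rat, either from the pars compacta of the substantia nigra (SNc) or from the ventral tegmental area beside it (VTA). The receptors were Mc3r, Calcr, Bdkrb1, Bdkrb2, Sstr1, Sstr2 and Npy1r, and every probe set that the platform annotation names for 1 of these 7 genes was taken, which gave 10 probe sets of the 8740 on the array that were not controls, and 7 of the 4736 genes that these name. Each probe set combines several short probes that match the same transcript. The 7 genes were chosen by their families and with the SNc to VTA differences of these data known, so those differences are given as a description, without p-values. Neurons were cut from tissue with a laser and their total RNA was hybridised to an Affymetrix rat expression array, with 8 arrays for SNc (replicates 1 to 8) and 7 for VTA (replicates 1 to 6, and 8). The strain, age and treatment of the rats, the number of animals, any pooling and the means by which neurons were recognised are not stated in what was used here, so the spread between arrays may in part be technical.

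These receptors sit in the cell membrane and pass the binding of a peptide to G proteins inside the cell. Melanocortin and calcitonin receptors mainly act through Gs and raise cyclic AMP, kinin receptors act through Gq and release calcium from internal stores, and somatostatin and neuropeptide Y receptors act through Gi and dampen firing. Dopamine neurons of the VTA are known targets of melanocortins and of amylin, a peptide that binds the calcitonin receptor when it is paired with a RAMP protein.

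Mc3r had higher signal in VTA than in SNc, by 1.95-fold in mean signal. Calcr and both probe sets of Bdkrb1 also had higher mean signal in VTA. For Calcr and the first Bdkrb1 probe set (AJ132230_at) the VTA means were 52.3 and 72.6. Their SNc means of 15.4 and 18.3 were too near background to give a fold. The second Bdkrb1 probe set differed less, with means of 41.1 in SNc and 63.4 in VTA, and the regions overlapped widely. Npy1r had nearly the same mean in both regions, and Bdkrb2, Sstr1 and Sstr2 lay at signals so low that little could be read from them. A signal of 26.3 was the lowest mean kept by a filter that left out the dimmest 40% of probe sets by their mean of log2(signal + 16) over all arrays, turned back to signal, and serves below as the mark of a signal near background, since no detection calls were used. Of the 10 probe sets 5 passed the filter, those of Mc3r, Calcr, Bdkrb1 and Npy1r, and the 5 of Bdkrb2, Sstr1 and Sstr2 did not. With limma, 3 of the 5 had an adjusted p under 0.05, 3 higher in VTA and 0 higher in SNc, where 1.98% of the 5244 probe sets tested passed in either direction, 1.14% as higher in VTA and 0.839% as higher in SNc. Nothing is read from that count, because the choice of genes used the same contrast, and because Calcr and the first probe set of Bdkrb1 passed the filter through VTA alone. Over all 10 probe sets 8 differences were negative (lower in SNc) and the median was -0.31, beside -0.04 and 58.7% negative over all 8740 probe sets. The median signal of an array ran from 38.0 to 45.3 in SNc and from 42.3 to 46.8 in VTA. In bulk captures such as these, fewer cells that carry a transcript and less of it per cell cannot be told apart.

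The 250 bases before the transcription starts are shown here for Mc3r, Calcr and Bdkrb1. They had the larger differences, Bdkrb1 only by the dimmer of its 2 probe sets. These are the stretches that would be compared if their shared direction were followed up. That direction is in the contrast known when the genes were chosen. The sequences are from RefSeq on GRCr8, matched by gene identifier, and read 5′ to 3′ on the gene's own strand: Mc3r at chr3:181434526-181434775 (plus strand), Calcr at chr4:32691076-32691325 (minus strand) and Bdkrb1 at chr6:130275436-130275685 (plus strand). Capitals mark any match, on either strand, to TATAAA (the TATA box), to CCAAT (the box of that name), to GGGCGG (a GC box), to TGACGTCA (the cyclic AMP response element), to TGANTCA (an AP-1 site) or to AAAGGTCA (the site read by NR4A receptors). Matches of different motifs did not overlap in these windows.
Mc3r: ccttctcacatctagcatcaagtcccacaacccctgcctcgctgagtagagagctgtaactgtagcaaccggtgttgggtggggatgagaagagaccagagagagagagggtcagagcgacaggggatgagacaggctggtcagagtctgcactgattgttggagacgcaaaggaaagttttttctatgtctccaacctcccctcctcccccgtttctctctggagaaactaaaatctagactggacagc
Calcr: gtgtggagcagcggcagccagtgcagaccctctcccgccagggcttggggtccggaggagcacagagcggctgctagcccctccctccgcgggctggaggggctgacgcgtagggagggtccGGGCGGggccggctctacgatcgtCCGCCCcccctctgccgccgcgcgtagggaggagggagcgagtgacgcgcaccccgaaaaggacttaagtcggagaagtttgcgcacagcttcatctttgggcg
Bdkrb1: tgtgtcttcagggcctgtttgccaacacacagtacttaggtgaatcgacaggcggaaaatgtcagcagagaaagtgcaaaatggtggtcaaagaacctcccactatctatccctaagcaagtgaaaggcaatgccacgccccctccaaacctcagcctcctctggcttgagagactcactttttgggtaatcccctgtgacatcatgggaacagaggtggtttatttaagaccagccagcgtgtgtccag
The Calcr window held 2 GC boxes, 1 on each strand, that begin 128 and 104 bases before the start, and had 70.0% G and C. The windows of Mc3r and Bdkrb1, with 52.4% and 50.0% G and C, held 0 matches to these 6 motifs. Over 33469 rat promoters the median was 51.2% G and C, and 30.5% held a GC box, 34.0% a CCAAT box, 12.9% a TATA box, 6.34% an AP-1 site, 1.59% a full cyclic AMP response element and 1.24% the NR4A site. Of the other receptors, Sstr2 had 1 full cyclic AMP response element, which begins 73 bases before the start, with a GC box and a CCAAT box nearer to it, Sstr1 had a CCAAT box, and Npy1r had 0 matches. Bdkrb2 is not among the promoters used here. A match shows only that the letters are there.

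Mc3r encodes the melanocortin receptor that binds gamma-MSH with high affinity, and its probe set lay above 26.3 on 15 of 15 arrays. Signal in SNc ran from 66.2 through a median of 108.9 to 182.5, and in VTA from 166.8 through 198.5 to 296.1. The regions overlapped through a single SNc array: SNc 5, at 182.5, lay above VTA 3 and VTA 6, at 166.8 and 171.3, while the other 7 SNc arrays lay below every VTA array. VTA 4, VTA 5 and VTA 8 formed the upper end, at 273.2, 296.1 and 271.7. Mean signal was 115.2 ± 34.8 (SD, n = 8) in SNc and 224.7 ± 53.9 (SD, n = 7) in VTA, a log2 difference of -0.89 (SE 0.18) on the log2(signal + 16) scale, SNc minus VTA.

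Calcr encodes the calcitonin receptor. It was low in both regions, and its mean over all arrays on the scale of the filter, 26.7, was just above it. Signal in SNc ran from 2.03 through 10.7 to 37.8, and in VTA from 26.7 through 42.1 to 78.8. VTA 1, VTA 2 and VTA 3 were the highest arrays, at 78.8, 67.8 and 73.4. Within SNc, arrays 1, 7 and 8 lay at 37.8, 25.4 and 24.7, and the other 5 at 12.6 or less. SNc 1 was the array that overlapped VTA, since VTA 5 and VTA 6 lay below it, at 36.1 and 26.7. Means were 15.4 ± 12.6 (SD, n = 8) and 52.3 ± 20.6 (SD, n = 7), a log2 difference of -1.16 (SE 0.25). The SNc mean is below 26.3, so the size of the difference rests on the offset of 16, and it was -2.06 with an offset of 1 and -0.55 with an offset of 64.

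Bdkrb1 encodes the kinin B1 receptor, which binds kinins that have lost their C-terminal arginine and is known to be induced by tissue injury and inflammation. Its 2 probe sets, made from the same sequence record, differed in how clearly they set the regions apart. In the first, AJ132230_at, SNc signal ran from 12.7 through 17.3 to 25.6, so that 8 of 8 SNc arrays lay below 26.3, and VTA signal from 25.8 through 86.5 to 101.1. The regions did not overlap, but the gap between SNc 7 at 25.6 and VTA 5 at 25.8 was small. In 0.858% of all tested probe sets the regions did not overlap, and in 0.439% they did not with VTA the higher. The other 5 VTA arrays formed a group from 73.3 to 101.1, and VTA 8 at 38.6 and VTA 5 at 25.8 lay well under them. Means were 18.3 ± 5.01 (SD, n = 8) and 72.6 ± 29.2 (SD, n = 7), a log2 difference of -1.30 (SE 0.21). With SNc near background, it was -1.84 with an offset of 1 and -0.70 with an offset of 64.

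The second probe set of Bdkrb1, AJ132230_g_at, gave a smaller difference in the same direction. It was the brighter of the 2 by the mean over all arrays on the scale of the filter, 48.0 against 35.6. Signal in SNc ran from 15.1 through 42.9 to 65.3, and in VTA from 35.1 through 61.5 to 97.9. The regions overlapped widely, and 3 of 7 VTA arrays lay above the highest SNc array. Means were 41.1 ± 17.3 (SD, n = 8) and 63.4 ± 22.3 (SD, n = 7), a log2 difference of -0.49 (SE 0.22), and the probe set was not among those that passed. VTA 5, the lowest VTA array in the first probe set, was the median VTA array in the second, at 61.5, so the 2 probe sets did not order the arrays alike.

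**Figure D1:**
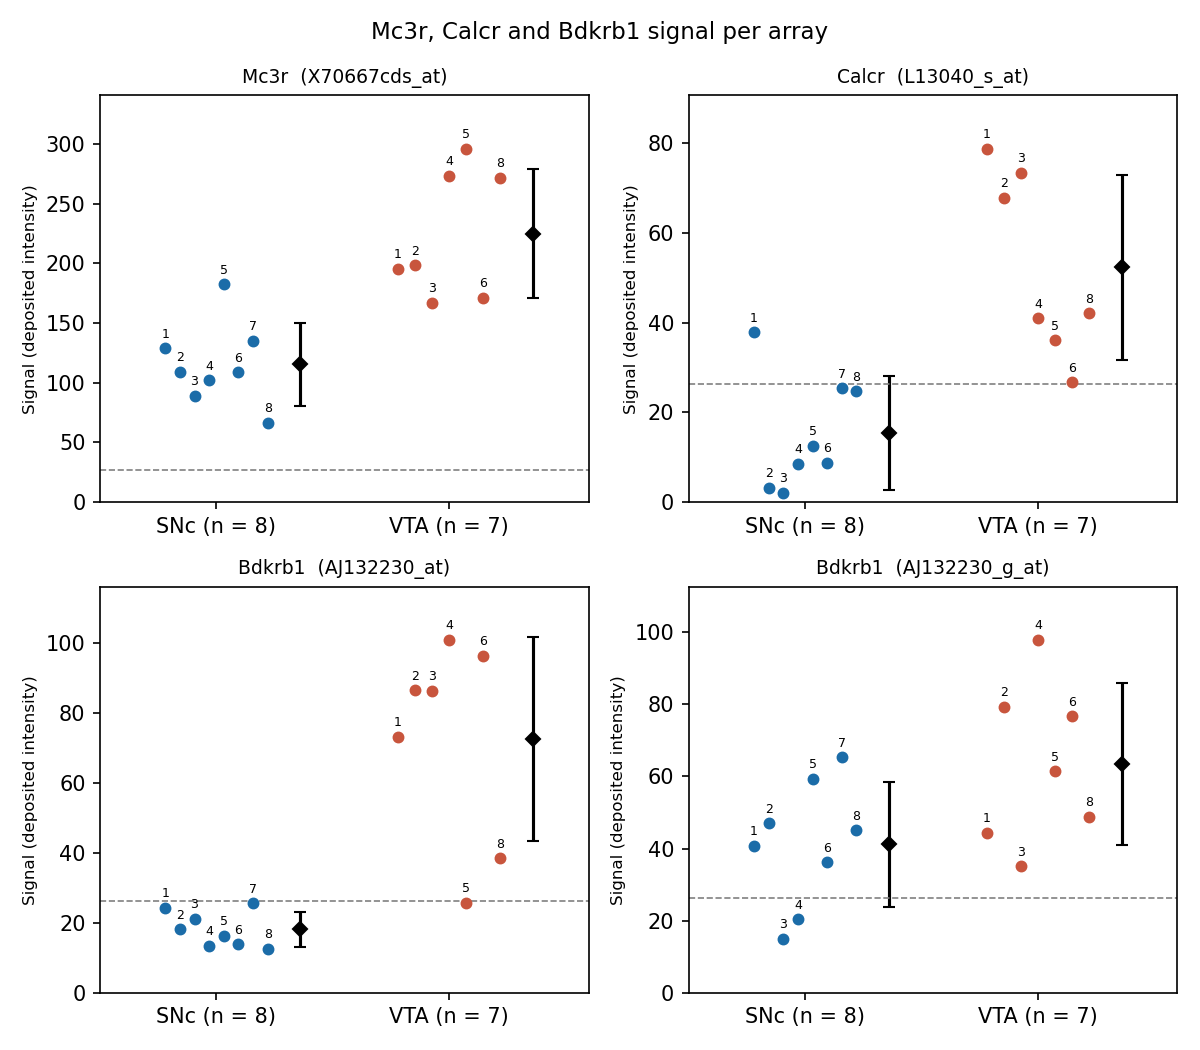
Signal (deposited intensity, linear axis from 0) of the probe sets of Mc3r, Calcr and Bdkrb1, with 1 point per array, the array number above it, and the mean ± SD as a black diamond with bars. The dashed line is the signal of 26.3 near background. VTA points lie mostly above SNc points in Mc3r, Calcr and the first Bdkrb1 probe set, where VTA 5 and VTA 8, at 25.8 and 38.6, fall away from the other VTA arrays, and the regions overlap widely in the second.

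VTA 5 and VTA 8 also correlated least with the rest over the tested probe sets, with medians of 0.910 and 0.919 against 0.926 to 0.941. They had the highest 3′ to 5′ ratios of the GAPDH control, 5.66 and 6.82 against 2.94 to 5.05. The same ratios of the beta-actin control, 9.43 and 9.13, lay within the range of the other arrays, 6.14 to 15.4. Both arrays were among the 3 highest for Mc3r and were the 2 lowest VTA arrays for the first Bdkrb1 probe set. The part of these array properties in either value was not tested. Without both arrays the log2 difference was -0.75 for Mc3r, -1.26 for Calcr and -1.62 for the first Bdkrb1 probe set. That choice of arrays was made after seeing the data.

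Bdkrb2 encodes the kinin B2 receptor, which is made constitutively in many tissues and binds intact bradykinin. Its probe set lay far below 26.3 on all 15 arrays, from 0.875 to 4.73 in SNc (median 1.96) and from 1.42 to 7.68 in VTA (median 1.81). The arrays overlapped throughout, and the log2 difference was -0.02 (SE 0.09). A difference between regions was not detectable at such signals.

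Sstr1 and Sstr2 encode somatostatin receptors. Of the 3 probe sets of Sstr1, M97656_s_at had 2.03 as its highest signal on any array, and L02915_at ran from 5.24 to 11.1 in SNc and from 9.06 to 11.7 in VTA. In L02915_at, 6 of 8 SNc arrays lay below the lowest VTA array, though every value was under 26.3, and the log2 difference was -0.18 (SE 0.08). L02915_g_at lay above 26.3 on 2 arrays, SNc 7 at 36.9 and VTA 5 at 29.0, and differed by -0.12 (SE 0.19), while M97656_s_at differed by 0.01 (SE 0.06). Sstr2 had signals from 2.23 through 10.8 to 26.4 in SNc and from 8.11 through 23.2 to 37.4 in VTA. Its arrays were scattered in both regions, with VTA 1, VTA 4 and VTA 6 at 37.4, 35.2 and 30.6 and the other VTA arrays among those of SNc. Means were 12.0 ± 8.46 (SD, n = 8) and 22.4 ± 12.4 (SD, n = 7), a log2 difference of -0.44 (SE 0.22).

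Npy1r encodes the Y1 receptor of neuropeptide Y. Its signal ran from 22.7 through 43.4 to 65.0 in SNc and from 30.6 through 38.2 to 49.5 in VTA, with 13 of 15 arrays above 26.3. The VTA arrays lay within the range of the SNc arrays. Means were 42.6 ± 14.3 (SD, n = 8) and 38.8 ± 7.10 (SD, n = 7), a log2 difference of 0.07 (SE 0.15), which was 0.16 after median centring and -0.01 with the array number as a block, a fit that leaves out SNc 7, or without SNc 7 alone.

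**Figure D2:**
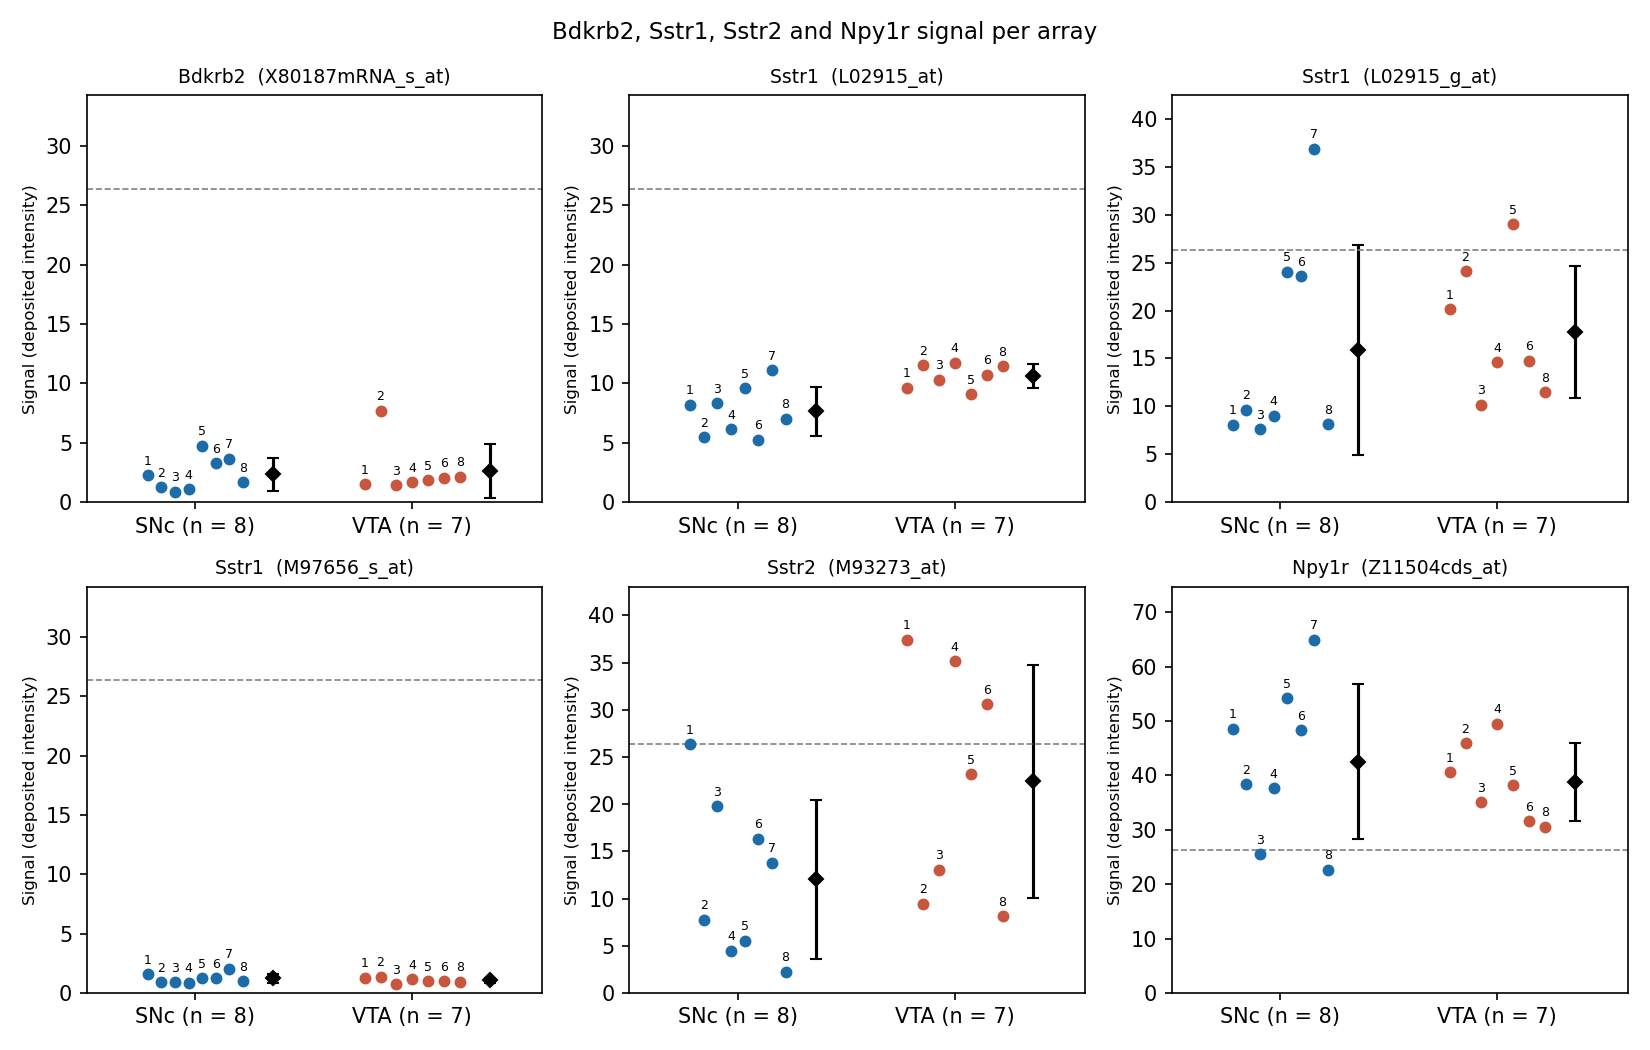
Signal (deposited intensity, linear axis from 0) of the probe sets of Bdkrb2, Sstr1, Sstr2 and Npy1r, with 1 point per array, the array number above it, and the mean ± SD as a black diamond with bars. Most points of Bdkrb2, Sstr1 and Sstr2 lie under the dashed line at 26.3, and the regions overlap in every panel.

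Within SNc, arrays 5 and 7 were the 2 highest of the 8 SNc arrays in 6 of the 10 probe sets, those of Mc3r, Bdkrb2 and Npy1r, 1 of Bdkrb1 and 2 of Sstr1, while 8.15% of all 8740 probe sets had that order. The same 2 arrays had the highest median signals in SNc, 45.3 and 45.0 against 38.0 to 43.4 for the rest. After each array was centred on its median, 3 of the 10 probe sets kept the order, and 3.51% of all probe sets had it. The order was noticed in these values and its source was not tested.

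The choice of offset changed the size of several differences, most for Calcr and the first Bdkrb1 probe set. The log2 difference of Sstr2 was -0.95 with an offset of 1 and -0.18 with 64, and that of Sstr1 by L02915_at was -0.46 and -0.06. For Mc3r, which is far from background, it stayed between -0.98 and -0.69.

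**Figure D3:**
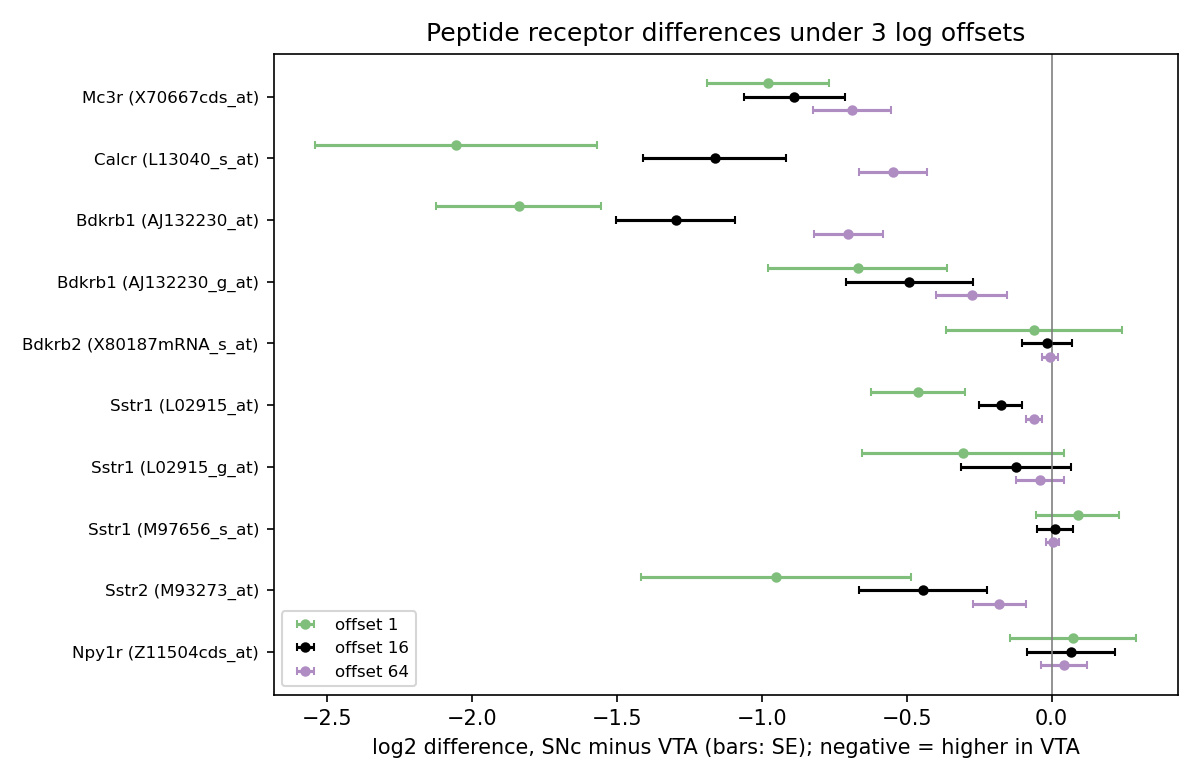
Log2 difference, SNc minus VTA, of each of the 10 probe sets with offsets of 1, 16 and 64 added to the signal before the logarithm, with bars for the SE of the limma fit over 8 SNc and 7 VTA arrays. Mc3r stays between -0.98 and -0.69, Calcr and the first Bdkrb1 probe set keep their direction while their size changes, and the dim probe sets of Bdkrb2 and Sstr1 lie near 0 at offset 16.

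The peptides, processing enzymes and other receptors of the same 5 systems were mostly near background. Of 47 genes listed, 28 had a probe set, and 8 of their 36 probe sets passed the filter. In limma 0 of these 8 passed the threshold in either direction, beside 1.98% of all probe sets tested, and 2 had an unadjusted p under 0.05. All 8 differences were negative, beside 58.7% over all 8740 probe sets, with a median of -0.38 beside -0.04 over all probe sets tested. The direction depended in part on the scaling, since at least that of Pomc turned, to 0.01, after quantile normalization.

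In the melanocortin system, Pomc, the precursor of the melanocortin peptides, had 48.6 ± 18.4 (SD, n = 8) in SNc and 53.8 ± 20.1 (SD, n = 7) in VTA, a log2 difference of -0.10 (SE 0.21, limma adjusted p = 0.87). Mc4r, the other brain melanocortin receptor, and Mc5r had means from 8.79 to 11.5, below the filter. In the calcitonin system, Calcrl, the receptor that RAMP proteins turn into a receptor for CGRP or adrenomedullin, differed by -0.40 (SE 0.21, limma adjusted p = 0.373), at 30.4 in SNc and 45.7 in VTA. Crcp, a component of CGRP receptor signalling, differed by -0.42 (SE 0.19, limma adjusted p = 0.291). The ligands Calca, Calcb, Iapp (amylin) and Adm (adrenomedullin) had region means from 6.89 to 34.0 over their 5 probe sets, and 0 of these passed the filter. Ramp1, Ramp2 and Ramp3 were listed but had no probe set, so the RAMP partners of Calcr and Calcrl were not measured.

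In the kinin system, the kininogen gene Kng2, 1 of the precursors of kinins, had means of 17.0 in SNc and 29.2 in VTA, but medians of 13.6 and 12.6. VTA 6, at 103.9, carried the VTA mean, and the log2 difference of -0.25 (SE 0.30) was 0.03 without it. Ace, the enzyme that breaks bradykinin down, differed by -0.48 (SE 0.25, limma adjusted p = 0.366). Klk1c9, also listed and tested, differed by -0.05 (SE 0.25, limma adjusted p = 0.943). Klk1, a tissue kallikrein that frees kinins from kininogen, is named here for its second probe set after its values were seen. That probe set, M19647_i_at, had 13.2 ± 13.2 (SD, n = 8) in SNc and 55.0 ± 24.7 (SD, n = 7) in VTA, a log2 difference of -1.32 (SE 0.25). It fell just under the filter, and in limma without the filter it passed (adjusted p = 0.0161). The probe set that did pass the filter gave -0.35 (SE 0.22, limma adjusted p = 0.477). Kallikreins are a family of near-identical genes, so the source of either signal among them is uncertain.

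In the somatostatin system, Sstr4 was the only somatostatin receptor to pass the filter, at 75.5 ± 34.8 (SD, n = 8) in SNc and 86.7 ± 25.8 (SD, n = 7) in VTA (log2 difference -0.20, SE 0.22, limma adjusted p = 0.709). Sstr3 and Sstr5 lay below the filter with differences of 0.18 (SE 0.16) and -0.35 (SE 0.12). Somatostatin itself, Sst, had 2 probe sets below the filter, and single arrays carried both. By K02248cds_s_at the difference was -0.18 (SE 0.18), and 0.02 without VTA 5. M25890_at had 328.8 on VTA 5 and 169.3 on SNc 8, against 75.3 or less on the other arrays. Its difference was -0.11 (SE 0.59), 0.39 without VTA 5 and -0.42 without SNc 8.

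In the neuropeptide Y system, Npy5r, the Y5 receptor, was dim, with a higher mean in SNc. Its signal ran from 14.4 to 38.7 in SNc and from 1.35 to 18.5 in VTA, with means of 26.7 ± 8.58 (SD, n = 8) and 8.76 ± 6.43 (SD, n = 7). The arrays overlapped, since SNc 8 at 14.4 lay below VTA 4 and VTA 5. Its mean over all arrays was below the filter, so it was not tested with the rest. Without the filter the log2 difference was 0.80 (SE 0.17) and passed in limma (adjusted p = 0.0312), and no test of its difference from Npy1r was made. Npy, the peptide, differed by 0.02 (SE 0.27) below the filter. Dpp4, a protease that trims neuropeptide Y, differed by -0.63 (SE 0.25, limma adjusted p = 0.226).

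**Figure D4:**
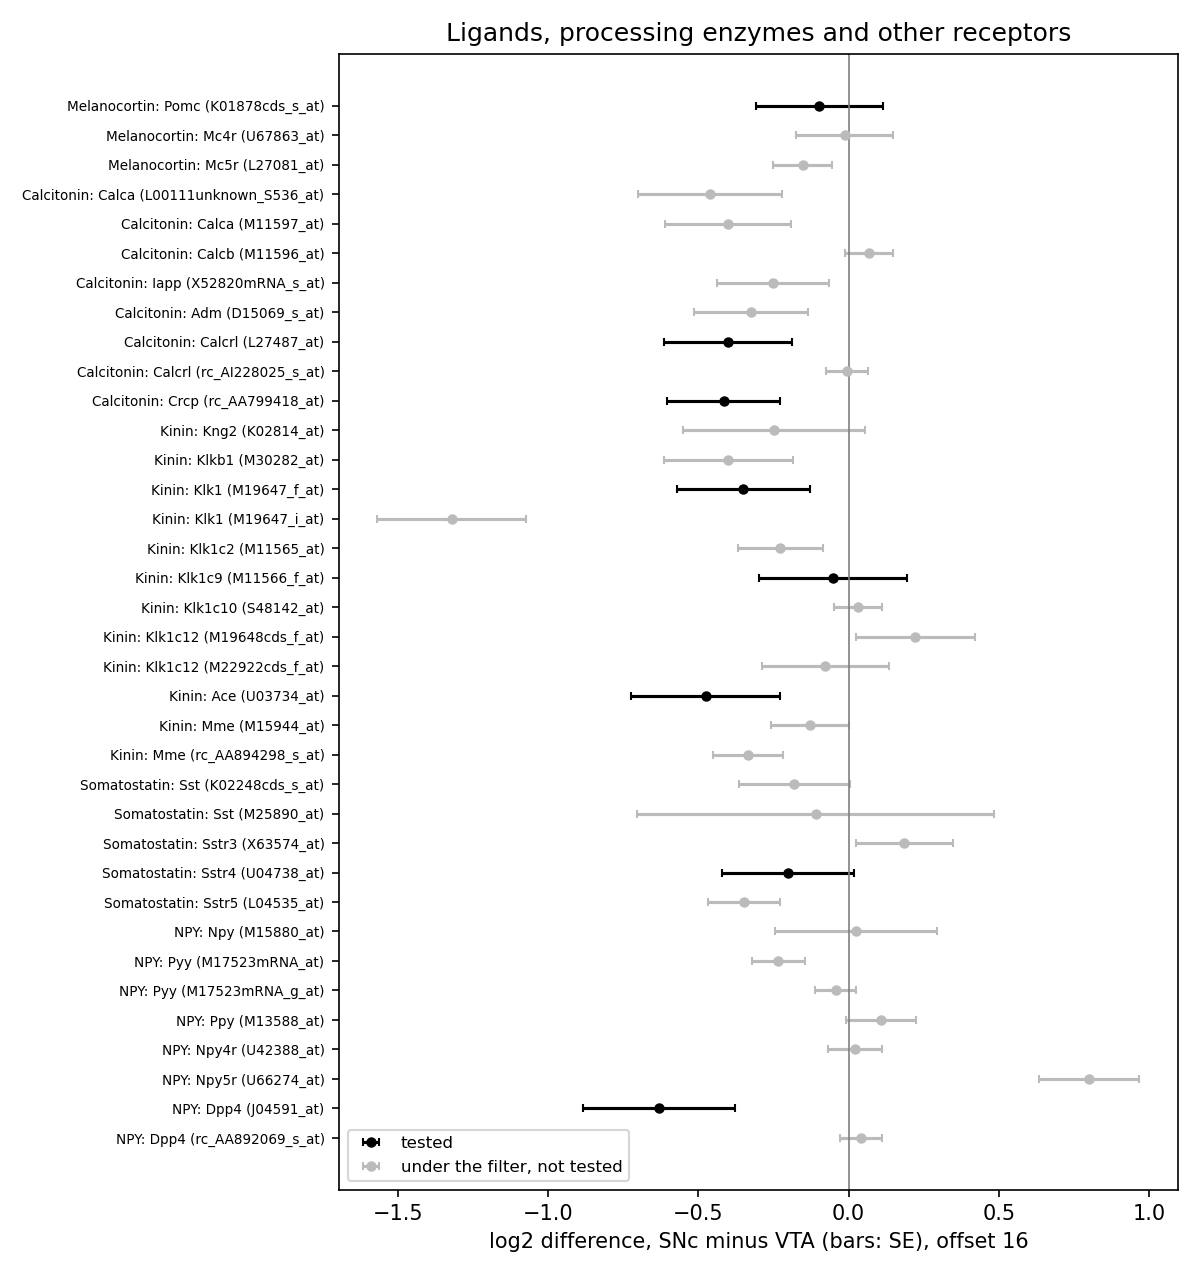
Log2 difference, SNc minus VTA, on the log2(signal + 16) scale with the SE of the limma fit, for 36 probe sets of ligands, processing enzymes and other receptors of the 5 systems. Black points passed the filter and were tested, grey points did not. Klk1 by M19647_i_at (-1.32) and Npy5r (0.80) lie farthest from 0 at this offset, both in grey, and their sizes rest on it.

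The signalling genes that these receptors share were measured at higher signals. Of 61 genes listed, 43 had a probe set, and 50 of their 71 probe sets, for 34 genes, were tested. In limma 1 of the 50 passed (2%), higher in SNc, beside 1.98% of all probe sets tested, so nothing is read from the count. An unadjusted p under 0.05 was seen in 8. The median difference was -0.07. The 1 that passed was Itpr1, by its brightest probe set. It encodes 1 of the inositol trisphosphate receptors through which Gq-coupled receptors release calcium. Its signal ran from 662.8 to 1132 in SNc and from 301.0 to 576.6 in VTA, without overlap. Means were 794.9 ± 153.8 (SD, n = 8) and 412.3 ± 92.4 (SD, n = 7), a log2 difference of 0.93 (SE 0.15, limma adjusted p = 0.00217). Its 4 other probe sets, with region means from 2.28 to 8.25, were below the filter and not tested. Itpr3, another of these receptors, leaned the other way. It differed by -0.31 (SE 0.19, limma adjusted p = 0.474) by L06096_at and -0.32 (SE 0.18, limma adjusted p = 0.431) by L06096_g_at. Itpr2, below the filter, differed by 0.26 (SE 0.16). Plcb4, a phospholipase C that Gq activates, differed by 0.44 (SE 0.14, limma adjusted p = 0.113) by its brighter probe set and by -0.21 (SE 0.20, limma adjusted p = 0.656) by the other. Gng11, a G protein gamma subunit, differed by -1.08 (SE 0.28, limma adjusted p = 0.0544). Plcb4, Gng11, Itpr2 and Itpr3 are named after their values were seen.

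The genes whose arrays varied most like a receptor's within regions were found by Pearson correlation of log2(signal + 16) minus the region mean over the 15 arrays, among 4300 tested probe sets with 1 gene symbol. They were Rgn and Pde3a for Mc3r (r = 0.85 and 0.81), Rap1b and Rassf2 for Calcr (0.90 and 0.82), Acvr1b and Cacng1 for Bdkrb1 by its second probe set (0.86 and 0.81), and Slc5a1 and Hspb2 for Npy1r (0.81 and 0.81). These are the highest of 4300 values each and share the same arrays and scaling, so they are a description only.

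The captures carried dopamine neuron markers at high signal in both regions, with 9 of 9 above 26.3 and a summed signal from 26850 to 33817 in SNc and from 22691 to 32435 in VTA. Markers of GABA neurons (Gad1, Gad2, Slc32a1 and Pvalb, 4 of 4 measured) summed to 908.6 to 1848 in SNc and 550.9 to 1022 in VTA, higher in SNc (exact permutation test, two-sided, adjusted p = 0.0149 over 8 lists). The other 7 lists did not pass, with exact permutation adjusted p from 0.0771 to 0.899. Oligodendrocyte markers (6 of 8 measured, 6 above 26.3) summed to 5512 to 9772 in SNc and 7868 to 11545 in VTA, astrocyte markers (7 of 8, 6 above 26.3) to 4151 to 6409 and 4290 to 6890, and vessel and blood markers (6 of 10, 5 above 26.3) to 258.2 to 559.7 and 365.9 to 1477. Of 7 microglia markers 2 were above 26.3, with Aif1, Itgam, C1qb, Csf1r and Cd74 below it, and the list summed to 103.6 to 196.3 and 121.0 to 226.7. Markers of serotonin, noradrenaline and cholinergic neurons (6 of 7, 4 above 26.3) summed to 206.5 to 366.4 and 276.5 to 450.7, with Tph1 and Dbh below 26.3. Slc17a7, the only glutamate neuron marker measured, lay from 1.59 to 7.35. The part of these markers in the receptor differences was not tested.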

How the data were processed

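The deposited values are linear intensities, 1 for each probe set on each array. The intensity values of all 15 arrays had the same trimmed mean, from which it follows that the authors scaled them before deposit. Software, background correction and amplification are not stated in what was used here. Of 8799 probe sets 59 controls were left out. The deposited scaling was kept, and values were taken as log2(intensity + 16). The dimmest 40% by mean were left out, and the remaining 5244 were compared between 8 SNc and 7 VTA arrays with limma 3.58.1 in R 4.3.3 (lmFit, eBayes, two-sided, Benjamini-Hochberg, threshold 0.05). Differences and SE of the 7 receptors come from the same fit without the filter. The fit was tested on simulated data. The number of arrays limits precision. Symbols came from the platform annotation, and 7 of 7 genes were found in the GRCr8 gene table. The receptors and gene lists were chosen with earlier results of these data known. Genes were named if they were receptors of the 5 families, their ligands, or other listed genes past the threshold, with the 2 most alike genes of each receptor past the filter. Crcp, Ace, Dpp4, Klk1, Klk1c9, Plcb4, Gng11, Itpr2 and Itpr3 fall outside that rule and were named with their values known. The brightest probe set stood for a gene in likeness and marker sums. The alternatives changed the scaling (quantile, median centring), the offset (1, 64), the filter (none, 60%), the variance or array weights, added the array number as a fixed or random block, left out each array in turn, or used mean log2 levels for marker lists.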

Additional observations from a re-analysis of the deposited data

Results flagged for a closer look

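In 60 sets of arrays (30 probe sets in 2 regions) 6 held an array far from the others by Dixon's criterion on the log2(signal + 16) scale. Chance gives about 1 in 20. All 6 were at probe sets left out by the filter, as were most of the 30 probe sets, so nothing is read from that. Bdkrb2 had 7.68 on VTA 2, against 1.42 to 2.12 on the other VTA arrays. The melanocortin receptor Mc4r had 18.9 on VTA 5, against 6.06 to 9.39, and the somatostatin receptor Sstr3 had 22.3 on VTA 8, against 4.38 to 9.17. The peptide gene Calcb was low on VTA 4, at 5.40 against 8.79 to 10.5. Somatostatin (Sst, by K02248cds_s_at) had 48.7 on VTA 5, against 6.49 to 11.5, and 14.5 on SNc 8, against 7.05 to 9.81 on the other SNc arrays. No explanation was tested for these values.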

How the results depend on the processing

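Mc3r, Calcr and both Bdkrb1 probe sets were lower in SNc in every setting run. Their log2 differences ran from -0.98 to -0.69 for Mc3r, -2.06 to -0.55 for Calcr, -1.84 to -0.70 for Bdkrb1 by AJ132230_at and -0.67 to -0.28 by AJ132230_g_at. The extremes were at offsets of 1 and 64, except the lowest of Mc3r, which was without SNc 5. The direction of Bdkrb2 and Npy1r turned in at least 1 setting. Among the partners, only the ligands, the other receptors and Itpr1 had their direction followed over the settings. Of these, Pomc, Mc4r, Calcrl by its dim probe set, Kng2, Npy, Npy4r and both Sst probe sets turned in at least 1 setting. Receptor probe sets past the threshold fell from 3 to 1, Mc3r, with the filter of 60%, which left out the others, and to 2 after quantile normalization, with an offset of 1 (Calcr lost both times) or without both VTA 5 and VTA 8 (Mc3r lost). These genes were chosen by the same contrast, so nothing is read from those counts.

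Over all probe sets the count of 104 (44 higher in SNc, 60 in VTA) was 59 with an offset of 1 and 184 with array weights, and 67 against 37 after median centring, which moved the median of all probe sets by 0.09. It ran from 56 to 115 on leaving out 1 array, and fell by over 1.5 times without SNc 2, 3 or 4 or VTA 1, 2, 3, 5 or 6. Of the listed partner probe sets 1, Itpr1, passed in 27 of 27 settings. The count was 2 with an offset of 64 (with Klk1) and with the random replicate block (with Gng11), 3 without the filter (with Klk1 and Npy5r) and 3 with array weights (with Gng11 and Plcb4), and ran from 1 to 2 on leaving out 1 array, with Gng11 added without SNc 5, SNc 6 or VTA 4. The difference of the dopamine marker list turned from 2093 in summed signal to -0.020 in mean log2 level (exact permutation adjusted p = 0.231 and 0.738). The causes were not tested.

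With the replicate number as a fixed block, 99 probe sets passed, 3 of them of these receptors, and with a random replicate block 153. Arrays of the same number correlated by 0.04 to 0.25 in their deviations from the region means, over 0.1 in 5 of 7 pairs. The numbers were not taken as pairs in the main fit, because 2 pairs were not over 0.1 and no label ties a number to a shared animal or day. All 7 correlations were positive, however, and the cut of 0.1 was a choice. Whether the numbers mark pairs was not tested. Of the 14 arrays with a partner, 6 correlated best with it among the arrays of the other region. Each had 7 or 8 such arrays to match, and the number expected by chance was not worked out. The consensus correlation of the random block was 0.12.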
